A study of Mus musculus with 12 samples.

Results

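Annotated long intergenic noncoding RNAs (lincRNAs) of the mouse mammary gland late in pregnancy were described across 12 libraries. The members were the transcripts that the authors' table of annotated lncRNAs types as lincRNA, without Pinc, H19, Dubr and Crnde. They came to 474 of 1822 transcripts and 402 of 1533 genes. A lincRNA is transcribed from its own locus, outside the protein-coding genes, and is usually capped, spliced and polyadenylated like an mRNA. Some build nuclear structures, as Malat1 and Neat1 do, some act on chromatin, as Xist does, and others matter mainly as precursors of small RNAs carried in their introns or exons. Many are made near genes of developmental regulators, and for most of the names below no function is given in the sources used here.

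The mice were ICR, an outbred stock, and the tissue was the 4th inguinal mammary gland on day 17 of pregnancy, when alveolar epithelium is preparing to secrete milk. Control mice had a control diet, of which the labels say no more. From day 0 of pregnancy the Met mice ate a diet deficient in methionine and received intraperitoneal methionine at 35% of the amount in the control diet. The Met-Met mice were handled like the Met mice, but 25% of the injected methionine was given as the dipeptide methionyl-methionine. All 3 groups shared strain, tissue and day, and each held 4 libraries. Diet, injection and methionine amount cannot be told apart in the comparisons with Control. The labels do not say that each library is a separate animal, so a p-value here reflects the spread among libraries, which could be technical. The gland was sequenced whole, so fewer cells of a type and less RNA per cell cannot be told apart.

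Levels are FPKM, fragments relative to transcript length and to all mapped fragments, summed per gene and divided by a library factor taken from protein-coding genes (0.835 to 1.23). The word scaled marks these values. The factor was 1.02 to 1.23 in Control, 0.835 to 0.956 in Met and 0.979 to 1.09 in Met-Met. It did not overlap between Control and Met, so the division raised Met relative to Control. Read numbers are unknown, so no counting error can be given. Luminal epithelial markers (8 of 8 found, none listed at 0) averaged 8.69 to 9.39 log2 units across the libraries, so markers of the labelled tissue were present. Lymphocyte markers were present in 6 libraries. The B cell list (10 of 10 found) averaged 2.53 to 3.03 in Control 1, 2 and 3, was 1.32 to 1.35 in Met-Met 1, Met-Met 3 and Met 4, and was 0.0924 to 0.284 in the remaining 6. Met 2 held skeletal muscle markers at a mean of 4.5, against at most 0.803 elsewhere, and skin keratinocyte markers at 2.11, against at most 0.736. The noncoding gene Gm26917 was listed at 9398 to 11147 scaled FPKM in Met 3, Met 4 and Met-Met 2, while 9 libraries had 64.3 to 99.9. No Control library is among those 3. Fold changes within the 9 libraries that remain (4 Control, 3 Met-Met, 2 Met) therefore stand beside those over all 12 for many genes below.

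Promoters are shown here for 4 of the genes whose levels differed most between groups, 3 that rose in Met and 1 that fell. They come from RefSeq on GRCm38.p6 and run from 250 bases before to 50 bases after the annotated start, each on the strand of the gene. RefSeq promoters were matched for 214 of the 402 genes. AC160121.1 is at chr13:72816714-72817013 on the minus strand, AC160765.1 at chr13:52757156-52757455 on the minus strand, E230001N04Rik at chr17:28522406-28522705 on the plus strand and 2610016A17Rik at chr19:25672190-25672489 on the minus strand. Capitals mark matches to the letters TTCNNNGAA, the core recognised by STAT5, the factor that carries the prolactin signal in this tissue.
AC160121.1: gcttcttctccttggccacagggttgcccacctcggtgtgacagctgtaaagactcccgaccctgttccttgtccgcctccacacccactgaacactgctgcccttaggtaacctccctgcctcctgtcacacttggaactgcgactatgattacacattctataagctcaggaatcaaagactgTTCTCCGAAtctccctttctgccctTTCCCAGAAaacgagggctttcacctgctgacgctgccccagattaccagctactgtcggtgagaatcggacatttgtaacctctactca
AC160765.1: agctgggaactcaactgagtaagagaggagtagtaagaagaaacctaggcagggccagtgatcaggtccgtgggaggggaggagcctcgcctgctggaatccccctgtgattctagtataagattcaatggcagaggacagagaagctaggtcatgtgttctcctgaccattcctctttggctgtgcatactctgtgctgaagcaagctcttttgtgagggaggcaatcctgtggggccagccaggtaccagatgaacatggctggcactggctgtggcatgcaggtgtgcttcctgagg
E230001N04Rik: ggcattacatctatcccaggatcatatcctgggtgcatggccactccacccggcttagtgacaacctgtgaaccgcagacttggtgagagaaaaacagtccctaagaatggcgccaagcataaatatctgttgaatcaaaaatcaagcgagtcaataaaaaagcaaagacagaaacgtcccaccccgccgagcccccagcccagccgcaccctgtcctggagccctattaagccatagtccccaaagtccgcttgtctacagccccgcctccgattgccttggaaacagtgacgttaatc
2610016A17Rik: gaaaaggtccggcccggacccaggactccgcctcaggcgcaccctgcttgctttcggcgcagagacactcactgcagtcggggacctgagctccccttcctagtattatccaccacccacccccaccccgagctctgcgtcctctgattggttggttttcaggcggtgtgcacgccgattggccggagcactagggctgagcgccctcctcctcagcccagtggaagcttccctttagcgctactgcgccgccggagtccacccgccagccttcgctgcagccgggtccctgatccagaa

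The printed promoters of the 3 genes that rose held 2 to 12 CpG dinucleotides and that of 2610016A17Rik, which fell, held 21. That of 1190002F15Rik, which also fell and is not printed, held 13 with a GC content of 50.7%. That of Lincpint, called lower only in Met-Met against Control and also not printed, held 18 with a GC content of 58.7%. These are few genes, and the contrast was not tested. The table has a median of 7 over its 32851 promoters. The GC content of the printed promoters was 52.7%, 54% and 52% for AC160121.1, AC160765.1 and E230001N04Rik and 65% for 2610016A17Rik, with a median of 52.7% over the table. The 4 sets of letters searched on both strands were TTCNNNGAA, TGATGNAA (part of the ATF4 site, which serves the response to amino acid shortage), CACGTG (an E-box) and TATAAA. Of these 4 promoters only that of AC160121.1 held a match, to TTCNNNGAA, at positions -65 and -40 from the start, and the matches did not overlap. It is present in 8.3% of all promoters of this length, TGATGNAA in 3.97%, CACGTG in 7.15% and TATAAA in 13.6%. A match describes the letters of the window and is not evidence of binding.

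Most lincRNA genes were scarce. Their median over the 12 libraries was 0.532 scaled FPKM, with the middle of the distribution between 0.242 and 1.25, against 0.599 for the 1131 other annotated lncRNA genes and 1.54 for protein-coding genes. Of the 402 genes, 213 had a mean of at least 0.5 and were tested, 189 were below that and were not, and among the latter 2 were listed at 0 in every library. Only 13 genes averaged over 10. Malat1, which concentrates in nuclear speckles, was the most abundant, at 2124 to 7599 scaled FPKM. Without Malat1, Gm26917 and Gm42418, the remaining lincRNA genes summed to 553 to 910 scaled FPKM per library.

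**Figure D1:**
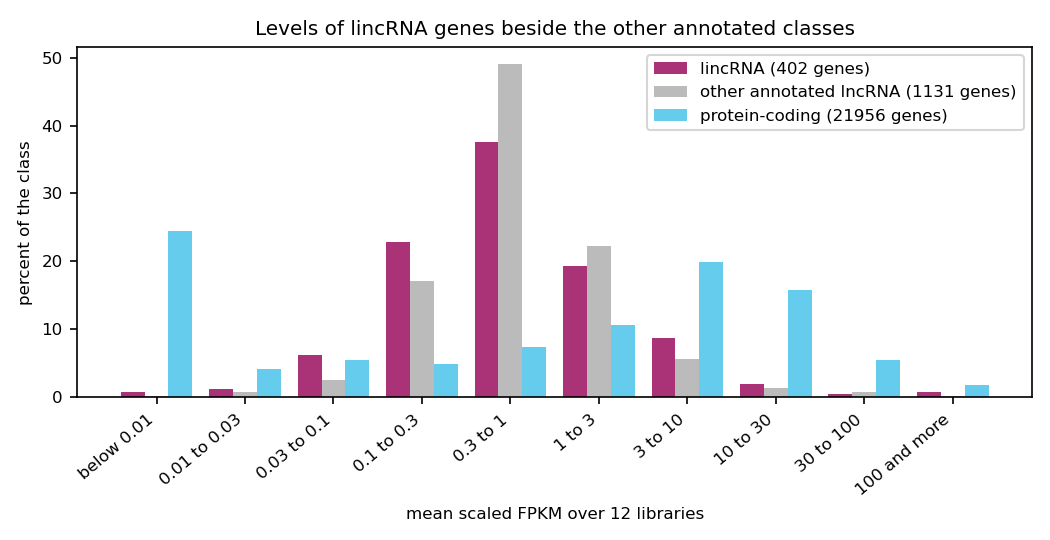
Percent of genes in each class (vertical axis) by mean scaled FPKM over the 12 libraries (horizontal axis, ranges), for lincRNA, other annotated lncRNA and protein-coding genes. The lincRNA genes peak in the range from 0.3 to 1, and protein-coding genes fill the lowest range and the ranges above 3.

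Several abundant lincRNAs differed more between libraries of the same group than between groups. Gm26917 was at 64.3, 76.5, 70.8 and 81.1 scaled FPKM in Control 1 to 4, at 83.6, 94.2, 11147 and 9539 in Met 1 to 4, and at 99.9, 9398, 78.6 and 82.6 in Met-Met 1 to 4. Gm42418, whose RefSeq entry is an 18S ribosomal RNA pseudogene, was high in the same 3 libraries, at 4853, 3762 and 4359, and at 48.7 to 135 in the other 9. Reads of such a gene may belong to ribosomal RNA copies elsewhere and are uncertain. Neither gene passed the limma test in any comparison, and both had an unadjusted p under 0.05 in Met against Control. Neat1, the scaffold of nuclear paraspeckles, which mice need for normal lactation, stood at 195 in Control 4 and 164 in Met-Met 2 and at 48.4 to 96.7 in the other 10 libraries. Xist, which coats and silences the inactive X chromosome, kept to 70.9 to 111 in all 12 libraries. 1700020I14Rik, the locus of Cyrano, a lincRNA that directs the decay of a microRNA, had the narrowest range of the abundant genes named here, 19.7 to 25.4.

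The lincRNA-typed transcript of Hist2h2bb, a histone gene that is also in the protein-coding tables, followed another set of libraries. It was at 11.3 scaled FPKM in Control 4, 12.1 in Met 4, 9.19 in Met-Met 1 and 7.42 in Met-Met 2, and at 0.831 to 1.81 in the other 8. Its coding transcripts were at 49.6 to 82.2 in those 4 libraries and at 53.9 to 161 in the other 8. Fragments from the coding and noncoding transcripts of this gene could be assigned to either. 1700001L05Rik reached 7.85 in Met 2, the library with skeletal muscle and skin keratinocyte markers, and was at 1.02 to 2.71 in the other 11. The part of those markers was not tested.

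**Figure D2:**
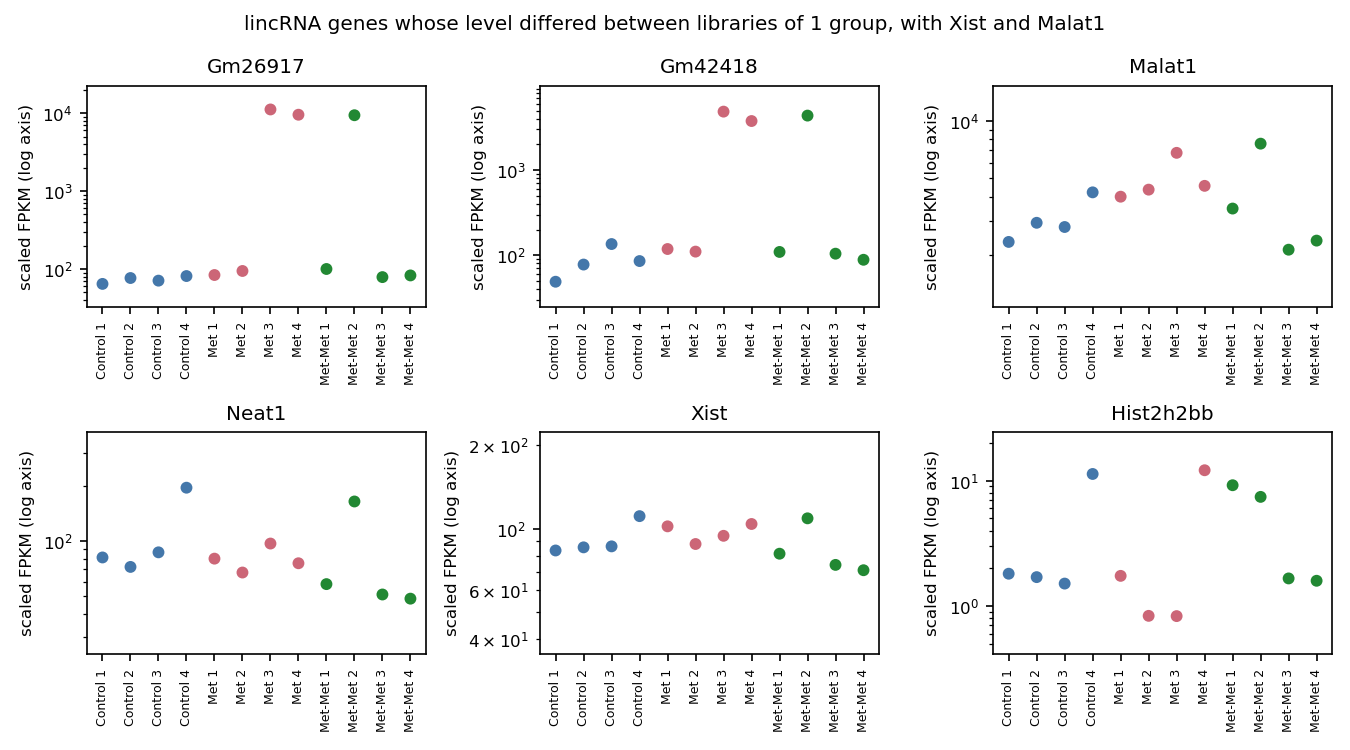
Scaled FPKM (log axis) of 6 lincRNA genes in each of the 12 libraries, coloured by group. Gm26917 and Gm42418 are high in Met 3, Met 4 and Met-Met 2, Hist2h2bb in Control 4, Met 4, Met-Met 1 and Met-Met 2, and Xist stays within 70.9 to 111.

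Met and Control glands differed in a limited set of lincRNAs. Of the 213 tested genes, 12 were higher and 12 were lower in Met (24, or 11.3%), at an adjusted p under 0.05 (limma, Benjamini-Hochberg over the 871 annotated lncRNA genes tested). Over all 871 genes 8.04% were called, 3.44% higher and 4.59% lower, and over the 658 other lncRNA genes 6.99% were called. Whether the lincRNA share differs from these shares was not tested. The 658 may include Pinc, H19, Dubr and Crnde. The median log2 fold change was 0.03 for lincRNA genes and -0.09 for all tested genes. Groups did not overlap for 33 lincRNA genes (15.5%), 20 of them called, against 15.2% of all tested genes. The count of called genes was 12 without Control 1, 11 without Control 2, 14 without Met 1 and 12 without Met 3, and 16 within the 9 libraries. Of those 16, 14 were among the 24. Fold changes here and below are on the log2(scaled FPKM + 0.5) scale, which understates the change of scarce genes.

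The split between directions depended on scaling. With FPKM as deposited 8 lincRNA genes were higher and 22 lower in Met, and the median of all tested genes was -0.31. After quantile normalization 20 were higher and 7 lower, and that median was -0.02. The called genes kept their direction under both scalings and under every other alternative tried.

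The 4 genes with the largest rises in Met were mostly scarce in Control and reached a few FPKM or more in Met. AC160121.1 (RefSeq D730050B12Rik) was at 0.0304, 0.0147, 0.168 and 0.116 scaled FPKM in Control 1 to 4, at 1.98, 1.58, 4.5 and 1.12 in Met 1 to 4, and at 0.693, 0.124, 0 and 0.088 in Met-Met 1 to 4. Every Met library was above every other library, and Met 3 was the highest. Its log2 fold change against Control was 2.14 (SE 0.32, limma adjusted p = 0.00131), and 1.97 within the 9 libraries. AC160765.1 (RefSeq BB123696) was at 0.188, 0.327, 0.462 and 0.67 in Control, at 3.25, 3.04, 3.7 and 1.77 in Met and at 0.748, 0.518, 0.303 and 0.569 in Met-Met. Control and Met-Met libraries overlapped and the Met libraries stood above both. Its fold change was 1.91 (SE 0.22, limma adjusted p = 0.000385), and 2.03 within the 9 libraries.

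Gm16793 gave 0.359, 0.512, 0.706 and 0.626 scaled FPKM in Control, 3.03, 3.49, 2.03 and 1.91 in Met and 1.13, 1.03, 0.761 and 0.236 in Met-Met. Met 1 and Met 2 were highest, and no Met library overlapped the others. The log2 fold change was 1.55 (SE 0.25, limma adjusted p = 0.002), and 1.85 within the 9 libraries. AC159886.2 (reference name Gm47818), the most abundant of these 4, gave 3.76, 6.55, 5.74 and 5.49 in Control, 15.9, 15.3, 17.1 and 16 in Met and 11.7, 8.37, 11.2 and 7.45 in Met-Met. The 3 groups did not overlap: Met was highest, Met-Met between and Control lowest. Its fold change was 1.51 (SE 0.19, limma adjusted p = 0.000612), and 1.47 within the 9 libraries.

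4732463B04Rik rose from 0.502 ± 0.265 in Control to 1.61 ± 0.22 in Met (SD, n = 4), with no overlap and a log2 fold change of 1.11 (SE 0.22, limma adjusted p = 0.00725). RP23-370A2.7 (reference name Gm44421), a gene outside the naming rule and chosen after its values were seen, rose from 1.06 ± 0.331 to 2.48 ± 0.163, again with no overlap and a limma adjusted p of 0.00725. The calls of these 6 genes held when any 1 library was left out. Among them only the call of 4732463B04Rik was lost with the B cell marker mean in the fit. The other 6 genes called higher were E230001N04Rik, Gm26671, CT009713.10, BC016548, 2810032G03Rik and Bvht, with fold changes between 0.65 and 1.17. The call for CT009713.10 was lost in 9 of the 12 fits that each left out 1 library, and that for Gm26671 in 3. Within the 9 libraries the calls of Gm26671, CT009713.10, BC016548 and Bvht were lost. Bvht (Braveheart), known for its part in heart muscle commitment of mouse embryonic stem cells, was at 2.5 to 3.88 in Control and 4.45 to 6.05 in Met. Its call was lost without any of Control 1, 2 or 3 or Met 1, 2 or 3. In all but AC159886.2 and BC016548 of the 12 genes, Met-Met against Control did not pass the test.

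Among the genes lower in Met, 2610016A17Rik and Gm3289 held their calls without any 1 library. With the B cell marker mean in the fit, the call of 2610016A17Rik was lost and that of Gm3289 was kept. 2610016A17Rik was at 3.52, 3.11, 3.26 and 2.17 scaled FPKM in Control, at 0.707, 0.902, 1.32 and 0.93 in Met and at 0.451, 0.844, 1.72 and 1.37 in Met-Met. Every Control library was above every other library. Its log2 fold change in Met was -1.26 (SE 0.24, limma adjusted p = 0.00725), and -1.42 within the 9 libraries. Gm3289 was at 0.953, 1.78, 1.47 and 1.79 in Control, 0.467, 0.185, 0.442 and 0.223 in Met and 0.174, 0.379, 0.438 and 0.593 in Met-Met, with the same arrangement. Its fold change in Met was also -1.26 (SE 0.20, limma adjusted p = 0.002), and -1.27 within the 9 libraries.

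Mir143hg, also named Carmn, is the host transcript of the microRNAs Mir143 and Mir145 of smooth muscle. It was at 13.1, 15.9, 9.97 and 19.7 scaled FPKM in Control, 6.1, 4.52, 8.52 and 7.99 in Met and 8.21, 11.8, 6.34 and 9.92 in Met-Met. Met libraries were all below Control, and Met-Met overlapped both. The log2 fold change in Met was -1.06 (SE 0.25, limma adjusted p = 0.0217) and -1.36 within the 9 libraries, and the call was lost without Control 2, Met 1 or Met 2. Myoepithelial markers, from the contractile cells of the gland (8 of 8 found, none at 0), summed to 511 to 592 scaled FPKM in Control, 298 to 362 in Met and 469 to 546 in Met-Met. Their part in the result was not tested. Tested one by one, the 2 deposited Mir143hg transcripts had fold changes in Met of -0.79 (limma adjusted p = 0.0775) and -1.16 (limma adjusted p = 0.0232).

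AC107663.1 and AC102312.1 (reference names Gm47533 and Gm47865) were lower in Met by -1.05 and -0.93 on the log2 scale (limma adjusted p = 0.0353 and 0.0242), without overlap. The call for AC107663.1 was lost without any of Control 1, 3 or 4 or Met 1 or 4, and that for AC102312.1 without Control 2 or Met 1, 2 or 3. The remaining 7 genes called lower were AC158595.1, Gm28187, AW112010, 1190002F15Rik, Gm38399, D630033O11Rik and Snhg18, with fold changes between -1.26 and -0.62. Of the 12 fits that each left out 1 library, the call was lost in 7 for Gm28187, in 5 for D630033O11Rik and in 3 for Gm38399. Within the 9 libraries the calls of Gm28187, AW112010, 1190002F15Rik, Gm38399, D630033O11Rik and Snhg18 were lost. AW112010, an RNA that immune cells induce on activation, was at 13.4, 14.7 and 27.2 in Control 1, 2 and 3, the libraries with most B cell markers, 6.82 in Control 4, and ranged from 3.73 to 8.24 in Met and Met-Met. Its call (fold change -1.19, limma adjusted p = 0.0375) was lost without any of Control 1, 2 or 3 or any Met library, and its fold change was -0.22 without the 6 libraries with lymphocyte markers. In that fit Control is 1 library, whose spread is taken from the other groups.

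Sums over markers of several cell types differed between Met and Control. Adipocyte markers (12 of 12 found, none at 0) averaged 6.19 to 6.5 log2 units in Control, 5.18 to 5.44 in Met and 4.4 to 5.72 in Met-Met, and summed to 2267 to 2675, 1752 to 2349 and 896 to 2053 scaled FPKM. Fibroblast markers (9 of 9 found, none at 0) summed to 1374 to 1802 in Control, 628 to 790 in Met and 1070 to 1592 in Met-Met. Luminal epithelial markers summed to 35132 to 86837 in Control, 95954 to 150590 in Met and 56833 to 85063 in Met-Met, but their means on the log2 scale overlapped, at 8.69 to 9.1, 8.83 to 9.39 and 8.98 to 9.22. Erythrocyte markers (5 of 5 found) summed to 211 to 741 in Control, 62.6 to 126 in Met and 11.6 to 116 in Met-Met. Macrophage markers (8 of 8) summed to 102 to 135, 74.5 to 90.9 and 97.9 to 131 in the same order. Brown adipocyte markers (6 of 6, Ucp1 at 0 in at least 1 library) were higher in Met, at 115 to 169, than in Control, at 45.7 to 95.1, with 58.5 to 102 in Met-Met. B cell markers summed to 0.68 to 82.1 in Control, 1.08 to 17.3 in Met and 1.01 to 16.7 in Met-Met, with Fcer2a, Pax5 and Blk at 0 in at least 1 library. The part of these markers in the calls was not tested beyond the counts with a marker mean in the fit: 11 lincRNA genes were called in Met against Control with the B cell mean and 0 with the adipocyte mean, which does not overlap between these groups. In the latter limma fit 40 lincRNA genes had an unadjusted p under 0.05. Of the 11 called with the B cell mean, 9 were among the 24 called without a marker mean in the fit.

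**Figure D3:**
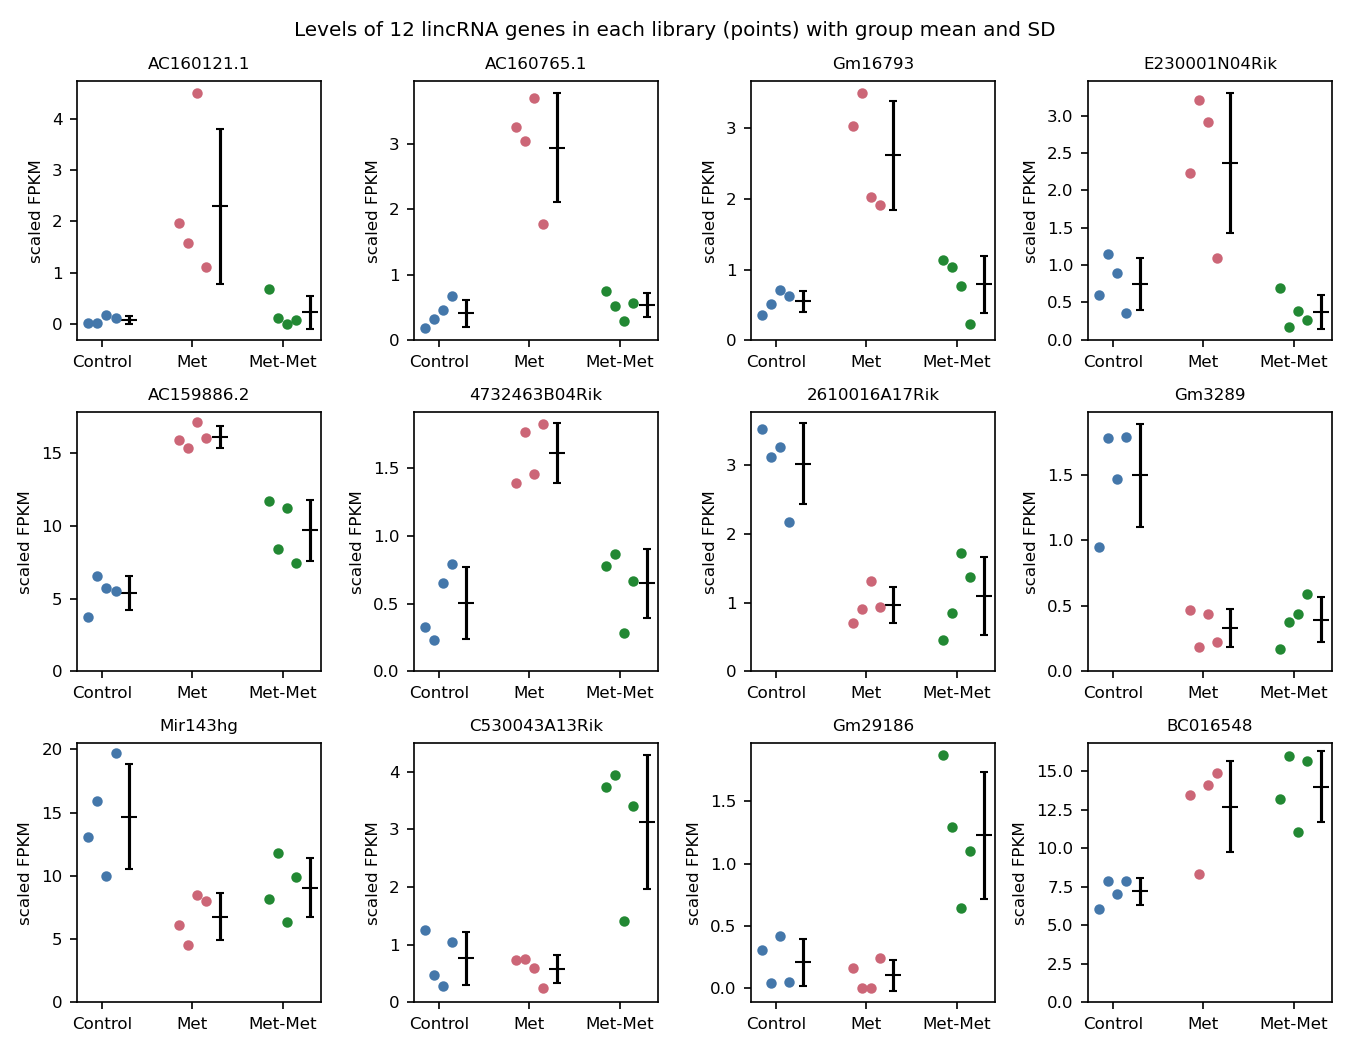
Scaled FPKM of 12 lincRNA genes (points are libraries, the bar to the right of each group is mean and SD, n = 4). The Met points of AC160121.1, AC160765.1, Gm16793 and 4732463B04Rik lie above all Control and Met-Met points, those of C530043A13Rik and Gm29186 are highest in Met-Met, and the Control points of 2610016A17Rik and Gm3289 lie above the rest.

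Replacing part of the injected methionine with the dipeptide was addressed by Met-Met against Met. In this comparison 18 of 213 lincRNA genes were called (8.45%), 4 higher and 14 lower in Met-Met, and the groups did not overlap for 16 of them. Groups did not overlap for 31 lincRNA genes in all (14.6%), against 9.53% of all tested genes. Over all 871 tested lncRNA genes 5.05% were called, 1.15% higher and 3.9% lower. The median log2 fold change was -0.18 for lincRNA genes and -0.10 for all. With FPKM as deposited 3 lincRNA genes were higher and 5 lower, and after quantile normalization 4 and 6. Within the 9 libraries 8 were called, and the count was 9 without Met 1, 10 without Met 2, 6 without Met 3, 7 without Met-Met 3 and 8 without Met-Met 4.

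The deepest falls were in genes that had risen in Met. The fold changes against Control and against Met share the Met libraries, so their opposite signs are not independent. AC160121.1 was lower in Met-Met than in Met by -1.90 (SE 0.32, limma adjusted p = 0.00344), AC160765.1 by -1.71 (SE 0.22, limma adjusted p = 0.000696) and Gm16793 by -1.30 (SE 0.25, limma adjusted p = 0.00855). Within the 9 libraries the values were -1.69, -1.83 and -1.71.

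E230001N04Rik was at 0.593, 1.15, 0.89 and 0.359 scaled FPKM in Control, 2.23, 3.21, 2.91 and 1.1 in Met and 0.688, 0.167, 0.38 and 0.266 in Met-Met. Every Met library was above every Met-Met library, while Met 4 fell just below Control 2. Its log2 fold change in Met-Met against Met was -1.67 (SE 0.28, limma adjusted p = 0.00344), and -1.78 within the 9 libraries. Against Control its rise in Met was 1.17 (SE 0.28, limma adjusted p = 0.0217), a call lost without Control 1 or Met 1, 2 or 3. The calls of these 4 genes in Met-Met against Met held when any 1 library was left out.

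Gm28151 had a fold change of -1.03 in Met-Met against Met (SE 0.26, limma adjusted p = 0.03), from 4.52 ± 1.21 to 2.01 ± 0.858 scaled FPKM (SD, n = 4) with Control at 4.01 ± 1.09. That call was lost without any of Met 1, 3 or 4 or Met-Met 3 or 4. Snhg6, host of a box C/D snoRNA, had a fold change of -0.72 (SE 0.18, limma adjusted p = 0.03), from 10.5 to 14.4 scaled FPKM in Met to 6.54 to 8.2 in Met-Met, and the call was lost without any of Met 2, 3 or 4 or Met-Met 1, 3 or 4. The 8 further genes called lower were 4732463B04Rik, RP23-370A2.7, D730003I15Rik, Gm5914, 2810032G03Rik, 1700096K18Rik, AC159886.2 and Fam120aos, with fold changes between -0.90 and -0.67. Of the 12 fits that each left out 1 library, the call was lost in 10 for Gm5914, in 9 each for D730003I15Rik, AC159886.2 and Fam120aos, in 6 for 4732463B04Rik, in 4 for 2810032G03Rik, in 3 for 1700096K18Rik and in 2 for RP23-370A2.7. The calls of Gm28151, Snhg6, 4732463B04Rik, RP23-370A2.7, D730003I15Rik, 2810032G03Rik and AC159886.2 were also lost within the 9 libraries.

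Of the 4 genes called higher in Met-Met than in Met, 2 were also called higher than in Control. C530043A13Rik was at 1.26, 0.476, 0.29 and 1.05 scaled FPKM in Control, 0.738, 0.747, 0.592 and 0.243 in Met and 3.73, 3.95, 1.42 and 3.41 in Met-Met. Met-Met 3 was the lowest of its group and still above every other library. The log2 fold change was 1.71 against Met (SE 0.30, limma adjusted p = 0.00604) and 1.52 against Control (SE 0.30, limma adjusted p = 0.0161), and 1.35 and 1.39 within the 9 libraries. Its call against Control was lost without Met-Met 1 or Met-Met 4, and its call against Met was lost within the 9 libraries (limma adjusted p = 0.0828, with a range of 0.00183 to 0.0828 over all alternatives). Each of its 2 transcripts was higher in Met-Met than in Met when tested alone, by 1.5 (limma adjusted p = 0.00427) and 1.20 (limma adjusted p = 0.0258). Against Control the values were 1.45 (limma adjusted p = 0.00705) and 1.00 (limma adjusted p = 0.0709).

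Gm29186 was at 0.306, 0.0449, 0.42 and 0.053 scaled FPKM in Control, 0.163, 0, 0 and 0.244 in Met and 1.87, 1.29, 0.644 and 1.1 in Met-Met. No Met-Met library overlapped the others. The fold change was 1.49 against Met (SE 0.24, limma adjusted p = 0.00344) and 1.28 against Control (SE 0.24, limma adjusted p = 0.0121), with 1.5 and 1.25 within the 9 libraries. Its calls held when any 1 library was left out. The remaining genes called higher against Met were RP24-143K11.1 and AC153938.2, at 0.80 and 0.77, each with an overlap between the groups. Of the 12 fits that each left out 1 library, the call was lost in 6 for RP24-143K11.1 and in 8 for AC153938.2. Both calls were also lost within the 9 libraries.

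Met-Met against Control gave 10 called lincRNA genes of 213 (4.69%), 4 higher and 6 lower, and the groups overlapped in none of the 10. Groups did not overlap for 30 lincRNA genes in all (14.1%), against 11.4% of all tested genes. Over all 871 tested lncRNA genes 3.79% were called, 1.03% higher and 2.76% lower. The median log2 fold change was -0.13 for lincRNA genes and -0.19 for all. With FPKM as deposited 3 were higher and 11 lower, with a median of all tested genes of -0.29, and after quantile normalization 5 were higher and 1 lower, with a median of -0.00. Leaving out Control 1 or Met-Met 1 left 3 calls, Met-Met 4 left 5, Control 2 or Control 3 left 6, leaving out Met-Met 2 gave 17, and within the 9 libraries 19 were called.

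Besides C530043A13Rik and Gm29186, the genes higher than in Control were AC159886.2 (0.79, SE 0.19, limma adjusted p = 0.0351, lost without Control 1, Control 3, Met-Met 1 or Met-Met 3) and BC016548. BC016548 was at 6.07, 7.89, 7.01 and 7.87 scaled FPKM in Control, 13.5, 8.36, 14.1 and 14.9 in Met and 13.2, 16, 11.1 and 15.7 in Met-Met. Control was below every other library, and Met 2 was nearest to it. The log2 fold change was 0.91 in Met-Met (SE 0.20, limma adjusted p = 0.0238) and 0.75 in Met (SE 0.20, limma adjusted p = 0.0353), and 0.84 and 0.54 within the 9 libraries, where the call in Met was lost. The call in Met-Met was lost without Control 1 or 3 or Met-Met 1 or 4, and that in Met without any of Control 1, 2 or 3 or Met 1, 3 or 4.

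Genes lower in Met-Met than in Control included 2610016A17Rik (-1.20, SE 0.24, limma adjusted p = 0.0161) and Gm3289 (-1.16, SE 0.20, limma adjusted p = 0.00838), which were lower in Met as well. The call for 2610016A17Rik was lost without Control 1, and also with the B cell marker mean in the fit. Lincpint, a lincRNA that p53 induces and that works with the Polycomb complex, was at 3.55, 4.55, 4.32 and 3.17 scaled FPKM in Control, 2.81, 3.28, 4.21 and 2.83 in Met and 2.11, 2.99, 1.03 and 1.75 in Met-Met. All Met-Met libraries were below Control, and Met overlapped both groups. Its fold change was -0.88 (SE 0.23, limma adjusted p = 0.0415), -1.07 within the 9 libraries, and the call was lost without any of Control 1, 2 or 3, Met 1 or 4, or Met-Met 1, 3 or 4. AC154502.3 (reference name 9530014B07Rik) was lower by -0.94 (limma adjusted p = 0.0351), lost without any of Control 1, 2 or 4, Met 1, or Met-Met 1, 3 or 4. 1190002F15Rik, also named Lockd and made next to the cell cycle inhibitor gene Cdkn1b, was at 1.3 to 2.08 in Control, 0.369 to 1.12 in Met and 0.482 to 0.97 in Met-Met. Its fold change was -0.84 in Met-Met (limma adjusted p = 0.0368) and -0.81 in Met (limma adjusted p = 0.0312), and -0.83 and -0.51 within the 9 libraries, where the call in Met was lost. The first of these calls was lost without any Control library or Met-Met 1 or 4, and the second without Control 1 or 2 or Met 3 or 4.

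In all, 37 lincRNA genes were called in at least 1 comparison. The lists of Met and of Met-Met against Control, which share the Control libraries, had 5 called genes in common, 20.8% of the first list and 50% of the second, all in the same direction. The lists of Met against Control and of Met-Met compared with Met, which share the Met libraries, had 8 in common, 33.3% and 44.4% of the lists, all in opposite directions. The smallest overlap, between the lists that share the Met-Met libraries, was 3 genes, AC159886.2, C530043A13Rik and Gm29186.

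**Figure D4:**
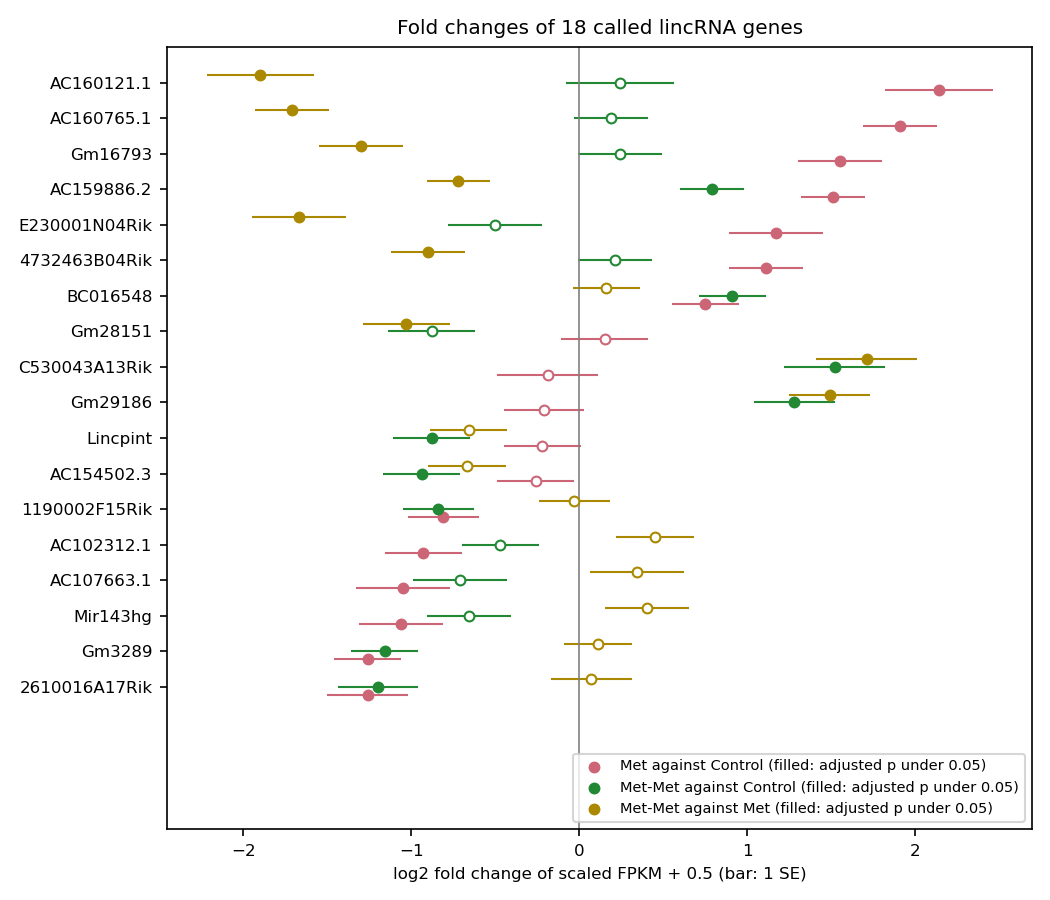
Log2 fold changes of 18 lincRNA genes (horizontal axis, bar 1 SE) in the 3 comparisons, with filled points for an adjusted p under 0.05. AC160121.1, AC160765.1 and Gm16793 are to the right in Met against Control and to the left in Met-Met against Met, and C530043A13Rik and Gm29186 are to the right in both comparisons of Met-Met.

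Several called lincRNAs lie next to protein-coding genes that changed the same way. Neighbours were taken from the order of genes in the RefSeq table of GRCm38.p6, which placed 257 of the 402 lincRNA genes. In Met against Control, 10 of 15 called lincRNA genes with a tested neighbour (66.7%) had at least 1 neighbour called in the same direction, against 32 of 112 tested but uncalled genes (28.6%). The same counts were 5 of 12 (41.7%) and 16 of 115 (13.9%) in Met-Met against Met, and 2 of 6 (33.3%) and 29 of 121 (24%) in Met-Met against Control. These counts are a description and were not tested. A neighbour called in the opposite direction did not count against a gene. The 10 genes of Met against Control included Mir143hg and Bvht, which share the neighbours Csnk1a1 and Il17b and changed in opposite directions. They also included AC160121.1, whose other neighbour was called the opposite way, and Gm16793, which overlaps its neighbour. Neighbours were fitted over protein-coding genes on the log2(scaled FPKM + 1) scale.

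E230001N04Rik lies beside Fkbp5, the gene of a steroid receptor cochaperone that glucocorticoids induce strongly. Fkbp5 was at 14.8, 14.5, 13.8 and 16.3 scaled FPKM in Control, 50.3, 84, 73.2 and 25.2 in Met and 18.1, 14.2, 12.1 and 12.9 in Met-Met. Met 4 was the lowest Met library for both genes and Met 2 the highest. The log2 fold change of Fkbp5 was 1.77 in Met against Control (SE 0.29, limma adjusted p = 0.00138) and -1.83 in Met-Met against Met (SE 0.29, limma adjusted p = 0.00348). Its level in Met-Met against Control differed by -0.06 (SE 0.29, limma adjusted p = 0.903).

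Gm16793 overlaps Mfhas1, which encodes a protein with leucine-rich repeats. Mfhas1 was at 13.3 to 16 scaled FPKM in Control, 20.3 to 36.4 in Met and 12.6 to 16.8 in Met-Met, with fold changes of 0.94 in Met against Control (limma adjusted p = 0.00125) and -0.94 in Met-Met against Met (limma adjusted p = 0.00391). The sources used here do not say whether counting used strand, so reads of these overlapping genes cannot be told apart. 2810032G03Rik lies beside Klhl29, of the Kelch-like family. The lincRNA was at 2.8, 2.82, 3.46 and 3.88 in Control, 5.4, 6.89, 5.98 and 4.73 in Met and 3.87, 3.1, 2.66 and 3.16 in Met-Met, and Met was above both other groups. Its fold change was 0.74 in Met (SE 0.17, limma adjusted p = 0.0189), lost without Control 1, Control 2 or Met 3, and -0.76 in Met-Met against Met (SE 0.17, limma adjusted p = 0.0221), lost without Met 2 or 3 or Met-Met 3 or 4. Within the 9 libraries these fold changes were 0.83 and -0.84, and the second call was lost. Klhl29 changed by 1.20 (limma adjusted p = 0.000506) and -1.17 (limma adjusted p = 0.00208).

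AC160121.1 lies between Irx2 and Irx4, genes of Iroquois homeobox factors. Irx2 was at 87.5 to 150 scaled FPKM in Control, 168 to 234 in Met and 101 to 147 in Met-Met, and it rose by 0.89 in Met (limma adjusted p = 0.00396) and was lower by -0.80 in Met-Met against Met (limma adjusted p = 0.0149). Irx4, on the other side, was lower in Met by -0.46 (limma adjusted p = 0.0494). AC160765.1 lies between Syk, a kinase of immune receptor signalling, and Auh, a mitochondrial hydratase, and neither rose with it. Syk was lower in Met by -1.14 (limma adjusted p = 0.00664) and Auh differed by -0.19 (limma adjusted p = 0.331). Syk was at 5.41, 7.78 and 8.3 scaled FPKM in Control 1, 2 and 3, the libraries with most B cell markers. It was at 2.59 in Control 4 and 1.54 to 2.41 in Met, and the part of those markers was not tested.

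Among the genes that fell in Met, AC158595.1 (reference name Gm30262) lies beside Phlda1, which encodes a pleckstrin homology-like domain protein. The lincRNA was at 2.11, 2.33, 0.869 and 1.58 scaled FPKM in Control, 0.328, 0.101, 0.354 and 0.986 in Met and 0.833, 0.771, 1.3 and 0.89 in Met-Met, with Met 4 above Control 3. Its fold change was -1.26 (SE 0.27, limma adjusted p = 0.0161), lost without Control 2, and that of Phlda1 was -1.22 (limma adjusted p = 0.000804), from 72.7 to 98.6 in Control to 29.2 to 44.7 in Met. Mir143hg lies between Csnk1a1 and Il17b, as does Bvht, which was called higher in Met (0.65, limma adjusted p = 0.0385). Il17b, a cytokine gene, was lower in Met by -1.60 (limma adjusted p = 0.00236), and Csnk1a1 was higher by 0.24 (limma adjusted p = 0.0153). 2610016A17Rik lies beside Dmrt2, a DM-domain factor gene, whose fold change in Met was -0.81 (limma adjusted p = 0.054).

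BC016548 sits between Ehf and Elf5, genes of Ets family factors of glandular epithelium, of which Elf5 directs formation of milk-secreting alveoli. Elf5 was at 267, 292, 287 and 275 scaled FPKM in Control, 327, 254, 369 and 353 in Met and 422, 403, 388 and 376 in Met-Met. Met-Met was above both other groups, and Met 2 was the lowest library for Elf5 and the lowest Met library for BC016548. Elf5 rose in Met-Met against Control by 0.50 (SE 0.11, limma adjusted p = 0.00891) and differed by 0.20 in Met (SE 0.11, limma adjusted p = 0.187). Ehf differed by 0.07 (limma adjusted p = 0.625) and -0.27 (limma adjusted p = 0.0564). C530043A13Rik, which was high in Met-Met, lies beside Tns1, the tensin gene of focal adhesions, which was lower in Met-Met than in Control by -0.82 (limma adjusted p = 0.00278) and in Met by -0.77 (limma adjusted p = 0.0024).

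**Figure D5:**
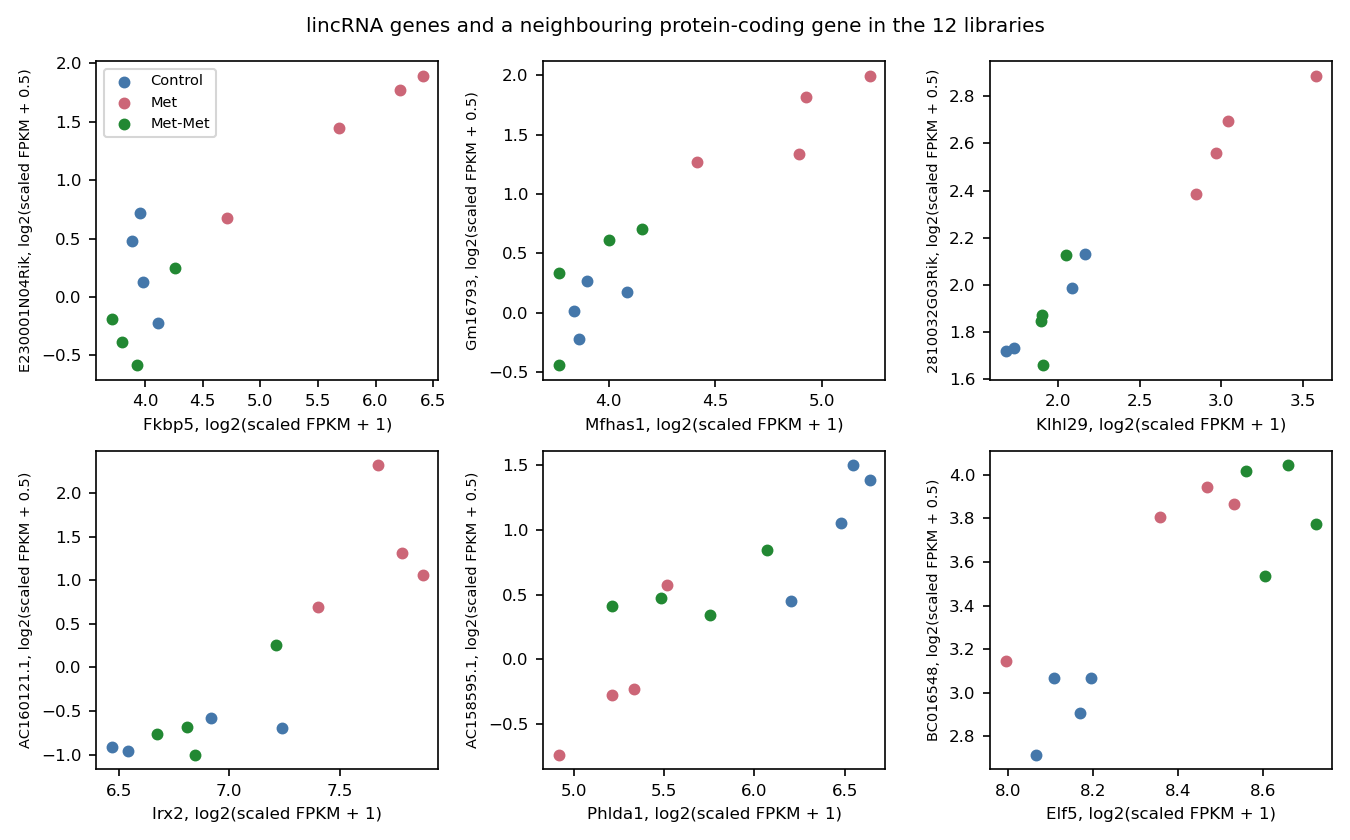
Level of a lincRNA gene (vertical axis, log2(scaled FPKM + 0.5)) against that of a neighbouring protein-coding gene (horizontal axis, log2(scaled FPKM + 1)) in 6 pairs, with 1 point per library. The Met libraries take the upper right for Fkbp5, Mfhas1, Klhl29 and Irx2 and the lower left for Phlda1, and the Control libraries the lower left for Elf5. Points of a group share their treatment.

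Of the 20 tested members of the role lists, 6 were called in at least 1 comparison, beside 37 of all 213 tested lincRNA genes. The list headed nuclear bodies and chromatin had 5 members, Malat1, Neat1, Lincpint, Pvt1 and 1700020I14Rik. The last was described above by its part in microRNA decay. Limma called 0 in Met against Control and 0 in Met-Met against Met, each with 1 at an unadjusted p under 0.05. In Met-Met against Control it called 1, Lincpint. Malat1 had fold changes of 0.69 in Met and 0.18 in Met-Met against Control and of -0.51 between Met-Met and Met (SE 0.40, limma adjusted p = 0.317, 0.812 and 0.605). Those of Neat1 were -0.33, -0.51 and -0.18 (SE 0.38), with Control 4 and Met-Met 2 apart from their groups. Pvt1, made beside Myc, was at 2.2 to 3.17 scaled FPKM in Control, 1.3 to 2.15 in Met and 1.38 to 2.67 in Met-Met. Every Met library was below every Control library, with a fold change of -0.52 that did not pass (SE 0.20, limma adjusted p = 0.113). Myc itself differed by -0.03 in Met (limma adjusted p = 0.938) and was lower in Met-Met than in Control by -0.82 (limma adjusted p = 0.0187). Xist, Jpx and Ftx, the lincRNAs of the X-inactivation centre, had 0 calls by limma in each comparison, also 0 at an unadjusted p under 0.05, and their fold changes lay between -0.45 and 0.09.

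The 6 snoRNA host genes among the lincRNAs, whose introns carry small RNAs that guide ribosomal RNA modification, had 1 call in Met against Control, 1 in Met-Met against Met and 0 in Met-Met against Control (4, 3 and 1 at an unadjusted p under 0.05 in limma). Over all 213 lincRNA genes the called shares were 11.3%, 8.45% and 4.69%, and those at an unadjusted p under 0.05 were 28.2%, 23.9% and 20.2%. Snhg18 was lower in Met, at 4.66, 3.53, 2.91 and 3.36 scaled FPKM in Control against 2.54, 2.33, 1.77 and 2.04 in Met, with 2.53, 2.16, 2.66 and 2.65 in Met-Met. Met and Met-Met were both below every Control library. The fold change was -0.62 in Met (SE 0.17, limma adjusted p = 0.0353), -0.47 within the 9 libraries (not called there), and -0.44 in Met-Met (SE 0.17, limma adjusted p = 0.146). The call was lost without Control 1 or 2 or any Met library. Its neighbour Sema5a, a semaphorin gene, was lower by -0.41 in Met (limma adjusted p = 0.01) and -0.52 in Met-Met (limma adjusted p = 0.0045). The other hosts, Snhg12, Snhg20, AC140477.3 (Snhg10) and Epb41l4aos, had fold changes between -0.05 and 0.52 in Met, with no call. The median of the 6 was 0.42 in Met, -0.00 in Met-Met against Control and -0.42 in Met-Met against Met, beside -0.09, -0.19 and -0.10 for all tested genes. With FPKM as deposited these medians were 0.12, -0.13 and -0.25, and after quantile normalization 0.14, 0.01 and -0.13.

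Of the microRNA hosts, Mir17hg was at 2.17 to 3.76 scaled FPKM in Control, 1.71 to 3.36 in Met and 1.27 to 2.52 in Met-Met, with no call, and Mirt1 averaged 0.178 and was not tested. The list headed lymphoid and myeloid had AW112010 and 1190002F15Rik as its 2 tested members. In Control, 1190002F15Rik was at 1.31, 2.08 and 1.3 in the libraries with lymphocyte markers and at 1.58 in Control 4, which lacked them. Its calls against Control in Met and Met-Met were lost with the B cell mean in the fit. The part of those markers was not tested further. AW112010 and 1190002F15Rik were lower in Met, and 1190002F15Rik was lower in Met-Met, while AW112010 there had a fold change of -1.22 (SE 0.32, limma adjusted p = 0.0511). Gm43291, below the minimum, was at 0.416, 0.793 and 0.683 in Control 1, 2 and 3 and at most 0.336 elsewhere. AC164623.1 (reference name Gm47015) was at 6.48 and 6.65 in Control 1 and 2 and between 0.261 and 2.79 in the other 10 libraries, with a fold change of -1.66 in Met (SE 0.50, limma adjusted p = 0.0565). No gene of the imprinted Dlk1-Dio3 list or of the structural RNA list was a member.

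Fewer lincRNA genes reached 0.5 scaled FPKM in Met-Met. The number was 218, 204, 212 and 222 in Control 1 to 4, 215, 201, 214 and 208 in Met 1 to 4 and 195, 201, 169 and 186 in Met-Met 1 to 4. Every Met-Met library was below every Control library, and Met-Met 2 equalled Met 2. Met-Met differed from Control by -26.2 genes (exact two-sided permutation p = 0.0286, adjusted over the 3 comparisons to 0.0857). No smaller unadjusted p is possible with groups of 4. It differed from Met by -21.8 genes (exact two-sided permutation p = 0.0571, adjusted p = 0.0857), and Met from Control by -4.5 (exact two-sided permutation p = 0.429). None passed the threshold after adjustment. No such count was made for the other lncRNA genes, so the lower number cannot be called particular to lincRNAs. The median log2 fold change of Met-Met against Control was -0.19 over all 871 tested lncRNA genes and -0.13 for lincRNA genes. Without Met-Met 2 the differences were -30.7 from Control and -26.2 from Met, each with an exact permutation p of 0.0286. With any 1 Control library or Met-Met 3 left out, the p for Met-Met and Control was 0.0571, and with any 1 other library of Met-Met or Met left out the p for Met-Met and Met was 0.0571 to 0.0857 (exact permutation). With FPKM as deposited the difference of Met from Control was -29.2 genes and that of Met-Met from Control was -38 genes. Each had an exact permutation p of 0.0286 and passed the threshold after adjustment. Every Met library was then below every Control library, so the lower number was not particular to Met-Met. The difference of Met-Met from Met was -8.75 (exact permutation p = 0.2), so all 3 differences changed with the scaling. At 0.1 scaled FPKM the differences were -14.5, -16.8 and -2.25 for Met from Control, Met-Met from Control and Met-Met from Met (exact permutation p = 0.0571, 0.0286 and 0.743).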

How the data were processed

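RNA of 12 mammary gland libraries (4 each of Control, Met and Met-Met, grouped by title) was analysed from FPKM that the authors deposited per transcript. The submitters' processing notes name StringTie 1.3.1, HISAT2 2.0.4 and Bowtie2 2.2.8, and the builds mm9 and GRCm38, without a role, and strandedness is not given in the sources used here. Read depth is unknown, so the precision of low values is too.

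FPKM were summed per gene. As library divisor served the median, over 11809 protein-coding genes averaging 1 FPKM or more, of a gene's ratio to its mean, rescaled to a geometric mean of 1. lncRNA genes with a mean of at least 0.5 (871, of which 213 lincRNA) were fitted as log2(scaled FPKM + 0.5) with limma 3.58.1 in R 4.3.3 (3 group means, all 12 libraries, intensity trend) and called at a Benjamini-Hochberg adjusted p under 0.05 over all 871. Neighbouring protein-coding genes were fitted likewise with a pseudocount of 1. Library counts were compared by exact permutation. The script was tested on simulated data. Tables and figures were made in Python 3.11.15 with matplotlib 3.10.9, numpy 2.4.6 and pandas 2.3.3.

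Members, lists, alternatives and tests were chosen with earlier results of these data known. Named genes are the 5 highest and 5 lowest called fold changes per comparison among genes whose groups do not overlap, the 8 most abundant genes, the role list members with a mean of at least 0.5, and up to 8 genes with the highest ratio of their top library to the median. Other called genes were named after their values were seen. Reference names matched 396 of the 402 genes. Alternatives were other scalings, pseudocounts, minimum means and library sets, marker covariates, a replicate block, transcripts, a joint fit with protein-coding genes, and leaving out each library. The fit without Gm26917 and Gm42418 was added after seeing the data.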

Additional observations from a re-analysis of the deposited data

Results flagged for a closer look

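Of 120 groups checked (40 named genes in 3 groups), 9 held a library whose gap to the rest exceeded Dixon's 95% critical value. Chance flags about 1 in 20 groups, but that rate does not apply to the 8 genes that were named for a library far above the median, on which 5 of the 9 fell. The other 4 fell among 96 groups. Gm26917 in Met-Met 2 was at 9398 scaled FPKM, against 78.6 to 99.9 in the other Met-Met libraries, and Gm42418 there was at 4359, against 88.2 to 109. Neat1 was at 195 in Control 4, against 72.1 to 86.6 in the rest of its group, and at 164 in Met-Met 2, against 48.4 to 58.1. Xist in Control 4 was at 111, against 83.5 to 86.4. Hist2h2bb was at 11.3 in Control 4, against 1.51 to 1.81, and at 12.1 in Met 4, against 0.831 to 1.74. Gm42889 in Met 3 was at 2.55, against 0.596 to 0.888. Epb41l4aos in Met-Met 3 was low, at 17, against 19.1 to 19.2. Control 4 and Met-Met 2 thus held 6 of the 9 values apart from their group.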

How the results depend on the processing

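Of 1437 refits of the 52 calls, 1033 kept the call, 404 lost it and 0 reversed its sign, and 16 calls held in every fit that left out 1 library. The cause of the moves was not tested unless the setting itself gives it (fewer libraries or genes). From 24 calls in Met against Control, the count went to 4 without the 6 libraries with lymphocyte markers, 11 with the B cell covariate and 0 with the adipocyte covariate (40 at an unadjusted p under 0.05 in limma), and leaving out 1 library gave 11 to 31. From 10 in Met-Met against Control, it went to 6 with quantile normalization, 4 at a minimum mean of 1, 20 in the joint fit with protein-coding genes, 1 without those 6 libraries, 19 without the 3 high in Gm26917, 5 with the B cell and 1 with the adipocyte covariate, and 3 to 17 leaving out 1 library. From 18 in Met-Met against Met, it went to 8 with FPKM as deposited, 10 with quantile normalization, 8 with the 8 libraries alone, 8 without the 3 libraries and 7 without the 6, and 6 to 22 leaving out 1 library.

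The replicate number as a block gave 15, 4 and 8 calls. The numbers were not treated as a pairing: same-numbered libraries correlated at -0.373 to 0.119 in their deviations from group means, and 0 libraries correlated best with their own number.

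The difference in lincRNA genes at 0.5 FPKM went in Met against Control to -29.2 with FPKM as deposited and -12 without the 6 libraries (leaving out 1 library, -7.83 to -1.67), in Met-Met against Control to -38 as deposited (-30.7 to -20 leaving out 1 library), and in Met-Met against Met to -8.75 as deposited (-26.2 to -15.5 leaving out 1 library). As deposited, the differences of Met and of Met-Met from Control each had an exact permutation p of 0.0286. At 0.1 FPKM the differences were -14.5, -16.8 and -2.25. Without Met-Met 2 it was -30.7 and -26.2, each with an exact permutation p of 0.0286. The other omissions gave 0.0286 to 0.0571 against Control and 0.0571 to 0.0857 against Met. Unknown depth limits what can be said of genes below 0.5 FPKM.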
